A study of Caenorhabditis elegans with 6 samples.

Results

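The genes described here are 10 innexins of Caenorhabditis elegans, the proteins from which invertebrate gap junctions are built: unc-7, unc-9, inx-1, inx-3, inx-7, inx-10, inx-12, inx-13, inx-14 and inx-19. They were taken as every probe set whose only gene in the platform's probe table is one of these, which gave 14 probe sets among 22548, or 10 genes among 17118. Of the 10 genes, 4 had a second probe set (unc-9, inx-1, inx-3 and inx-19) and 6 had 1. The symbol of each matched the RefSeq gene table of assembly WBcel235 by gene ID.

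L2 larvae, kept at 25 °C, gave the RNA, which was measured on 6 arrays of 1 colour. There were 3 arrays of unc-37(e262) animals and 3 of animals that the labels call N2, the wild-type strain, and the labels call the arrays of each group biological replicates. In both groups the RNA was taken from the A-class motor neurons (classes DA and VA, used in backward movement) through a FLAG-tagged form of the poly(A) binding protein PAB-1, whose expression the unc-4 promoter drove. UNC-37 is a Groucho-like corepressor and a partner of the transcription factor UNC-4, and the study set transcript levels in mutant neurons against those in wild-type ones. A pull-down of this kind enriches the tagged cells without isolating them, and fewer cells of a type cannot be told apart from less RNA per cell.

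Gap junctions join the cytoplasm of neighbouring cells, so that current and small molecules pass directly between them; between neurons they act as electrical synapses. Each junction pairs hemichannels of innexin subunits from both cells, and the cells may use different innexins. The backward command interneuron AVA is coupled to A-class motor neurons and the forward interneuron AVB to B-class motor neurons. In these contacts UNC-7 is known to act on the interneuron side and UNC-9 on the motor neuron side. In unc-4 and unc-37 mutants, VA motor neurons are known to lose contacts with AVA and to form gap junctions with AVB instead, which is why innexin transcripts in these cells are of interest.

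Values below are log2 probe set intensities, and a change is unc-37 minus wild type on that scale, so that 1 stands for a doubling. A probe set was called where its adjusted p was below 0.05 in limma, adjusted by Benjamini-Hochberg across the 22548 probe sets; this model gives every adjusted p in the text. The SE is that of the same fit. The brightness of a probe depends on its own sequence, so levels were compared between arrays for 1 probe set and never between genes. Median intensities of the 6 arrays lay between 50.1 and 52.4 on the linear scale. Array-to-array correlations over all probe sets were 0.98 to 0.99 within unc-37, 0.99 within wild type and 0.96 to 0.98 between the groups. The array numbers in the labels run from 89 to 98 for unc-37 and from 73 to 85 for wild type, so genotype and any order of processing cannot be told apart. The labels name no other batch. Set against the labelled cell type, markers of cholinergic and A-class motor neurons were read on every array, and 7 of 9 were higher in unc-37. Their summed intensity was 3819 to 4413 in unc-37 and 1497 to 2090 in wild type. The list includes unc-4, the gene of the tag's promoter, at 1001 to 1441 in unc-37 and 114 to 290 in wild type. On its own unc-4 was 6.69-fold higher in unc-37 arrays (adjusted p = 0.00245), and the 3 probe sets of pab-1 were not called. The unc-37 transcript was 1.41-fold higher at its brightest probe set (adjusted p = 0.0159); what the e262 allele alters is not in the labels, so this level does not check the genotype.

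Among the 10 innexins, unc-9 and inx-1 were higher in unc-37 A-class RNA, inx-3 was lower, and no probe set of the other 7 was called. Over the 14 probe sets, 3 were called higher and 1 lower, against 3.85% higher and 2.57% lower (6.42% in all) among all probe sets. Of the 14, 5 had groups of arrays that did not overlap, against 25.9% of all probe sets. At the brightest probe set of each gene, 2 of 10 were higher and 1 lower, where 3.94% and 2.81% of all genes were (6.75% in all). The median change of the 10 genes was -0.09, and that of all genes was -0.01.

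**Figure D1:**
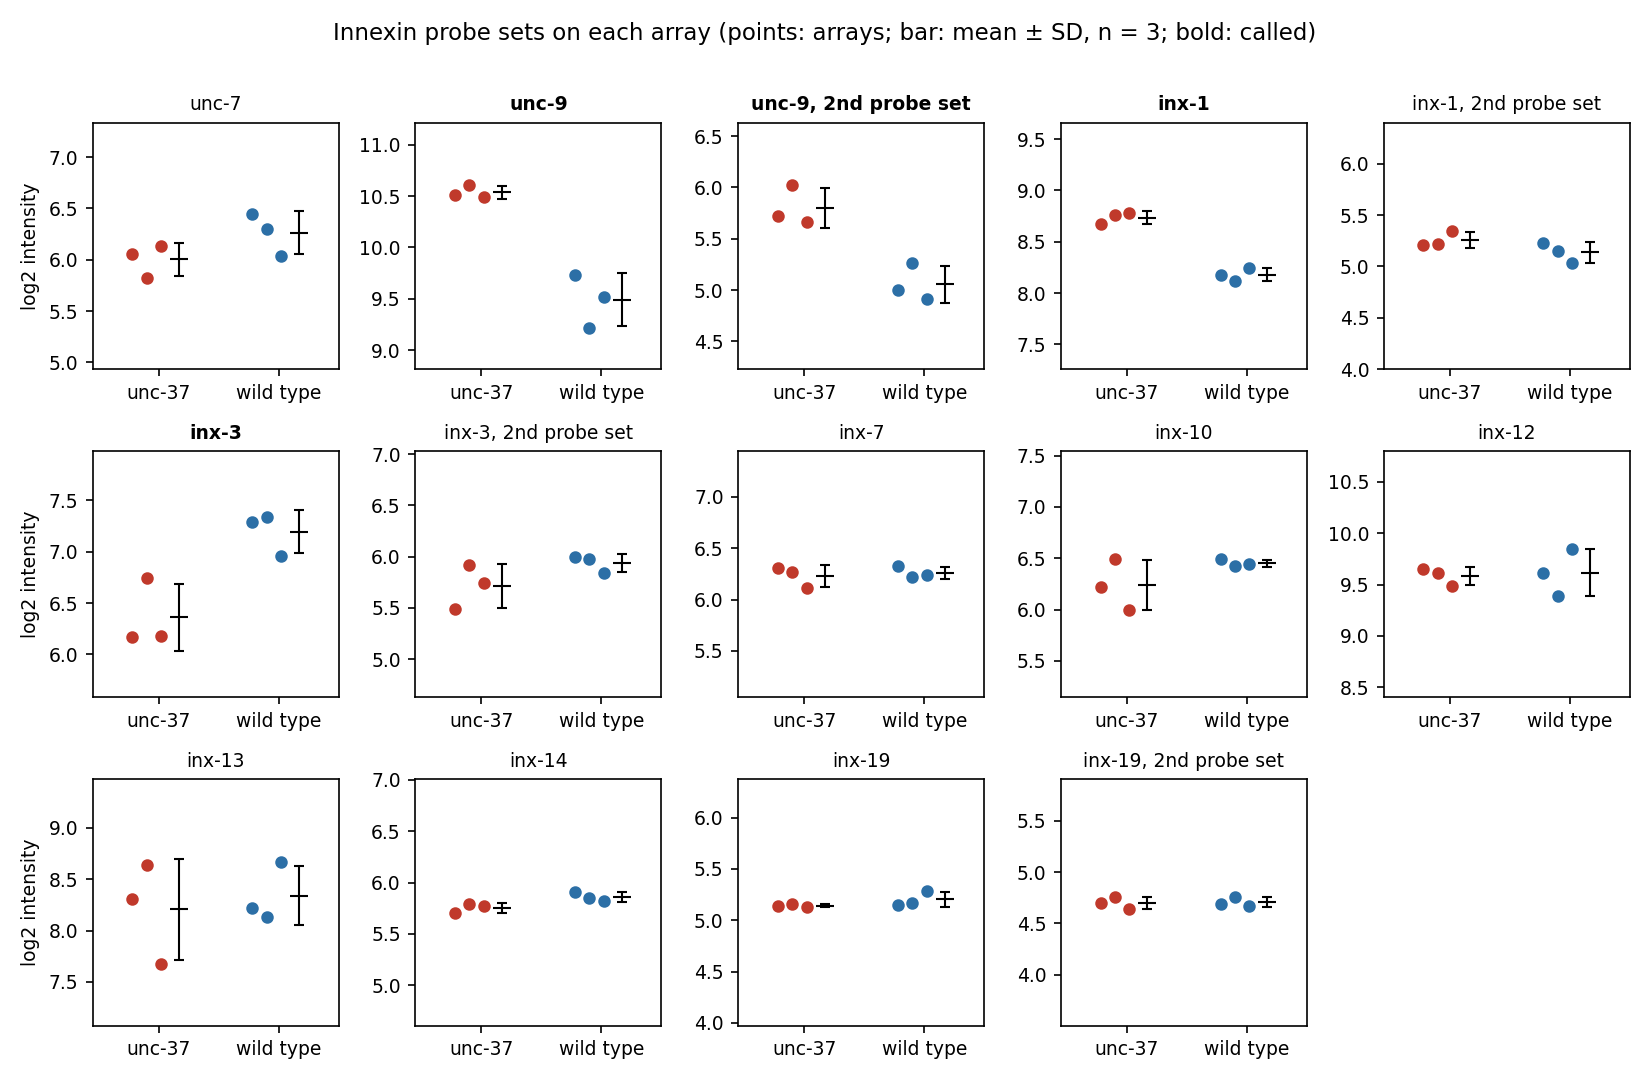
Log2 intensity (vertical axis, each panel spanning the same range of log2 units around its own mean) of the 14 innexin probe sets on the 3 unc-37 arrays (left, red) and the 3 wild-type arrays (right, blue); bars are means ± SD, n = 3. Both probe sets of unc-9 and the first of inx-1 sit higher in unc-37 with no overlap, the first of inx-3 sits lower, and the other panels differ little.

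The gene unc-9 encodes the innexin that motor neurons and body wall muscle cells use, and its mutants move without coordination. Its brighter probe set read 10.51, 10.61 and 10.49 on the unc-37 arrays, against 9.73, 9.22 and 9.52 on the wild-type arrays. Every unc-37 array was above every wild-type array, and the unc-37 arrays lay closer together. The means were 10.54 ± 0.06 in unc-37 and 9.49 ± 0.26 in wild type (SD, n = 3 each). The change was 1.05 ± 0.13 (SE), or 2.07-fold with a 95% interval of 1.67 to 2.55 (adjusted p = 0.00398).

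The second unc-9 probe set, which is dim, gave the same direction. It read 5.72, 6.02 and 5.66 in unc-37, against 5.0, 5.26 and 4.91 in wild type. The groups did not overlap, and the change of 0.74 ± 0.13 (1.67-fold, adjusted p = 0.0154) was called. The changes of the 2 probe sets differed by 0.30, with an interval of -0.13 to 0.74 (adjusted p = 0.476 over 3648 pairs of probe sets of 1 gene, of which 3.56% were called). The call of the dim probe set was lost without wild-type replicate 1 (adjusted p = 0.065) and without unc-37 replicate 1 (0.0517); that of the bright one was kept without any single array (0.00617 to 0.0246).

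Since UNC-9 also couples body wall muscle, muscle markers are given beside it. None of 8 genes of body wall muscle was called by limma, and 1 had an unadjusted p below 0.05. Their median change was 0.10, and their summed intensity ranged from 6836 to 8106 in unc-37 and from 6653 to 8886 in wild type, which overlap. Of 17 genes that all neurons use, 9 were higher and none lower, with a median change of 0.61. Their mean log2 level was 8.23 to 8.29 in unc-37 and 7.68 to 7.81 in wild type. The 9 cholinergic and A-class genes had a median change of 0.98, near the 1.05 of unc-9. For 5 B-class motor neuron genes it was 0.95, with 4 called higher. These 5 genes are named for a class other than the tagged one. In which cells their transcripts rose was not tested, so they are not read here as a measure of A-class content. Over 6 GABA neuron genes the median was lower, at 0.14, with 2 called higher. The part of any of these lists in the level of unc-9 was not tested.

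The transcript of UNC-7, the partner on the interneuron side, was not called. Its single probe set read 6.06, 5.82 and 6.13 in unc-37, against 6.45, 6.30 and 6.04 in wild type. The groups overlapped: wild-type replicate 3 lay below 2 of the unc-37 arrays. The change of -0.26 ± 0.13 was not called (interval -0.56 to 0.04, adjusted p = 0.316). At its upper bound this interval allows a rise of 1.03-fold, and at its lower one a level of 0.677 times wild type.

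The gap between both genes was taken within each array as the log2 value of unc-9 minus that of unc-7. It was 4.45, 4.79 and 4.36 on unc-37 arrays, against 3.28, 2.92 and 3.48 on wild-type arrays. All unc-37 gaps were wider than all wild-type gaps. The mean gap was 4.53 ± 0.23 in unc-37 and 3.23 ± 0.29 in wild type (SD, n = 3 each), a difference of 1.31. An exact two-sided permutation test over arrays gave p = 0.1, the smallest that 3 arrays against 3 allow. The size of the gap itself carries no meaning, since it holds the brightness of 2 different probes, and its widening restates the 2 changes given above.

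The gene inx-1 encodes another innexin of body wall muscle coupling. Its brighter probe set read 8.67, 8.76 and 8.78 in unc-37, against 8.18, 8.12 and 8.24 in wild type. The arrays of each group spanned 0.12 log2 units and the groups did not overlap. Means were 8.74 ± 0.06 in unc-37 and 8.18 ± 0.06 in wild type (SD, n = 3 each), a change of 0.56 ± 0.09, or 1.47-fold with an interval of 1.28 to 1.69 (adjusted p = 0.00913). The call was kept without any single array (0.0153 to 0.0463).

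The second inx-1 probe set was dim and gave no call. It read 5.21, 5.22 and 5.35 in unc-37, against 5.23, 5.15 and 5.03 in wild type, and the groups overlapped. Its change was 0.13 ± 0.09 (adjusted p = 0.503). The 2 changes differed by 0.43 (interval 0.12 to 0.73), which did not pass adjustment over all pairs (adjusted p = 0.143). The rise of inx-1 therefore rests on 1 of its 2 probe sets.

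The gene inx-3 encodes an innexin of epithelia and the pharynx that embryos need for morphogenesis. Its brighter probe set read 6.17, 6.74 and 6.18 in unc-37, against 7.29, 7.34 and 6.96 in wild type. The groups did not overlap, though unc-37 replicate 2 lay nearer to wild-type replicate 3 than to the other unc-37 arrays. Means were 6.36 ± 0.32 in unc-37 and 7.19 ± 0.21 in wild type (SD, n = 3 each), a change of -0.83 ± 0.17, with wild type 1.78-fold higher (adjusted p = 0.028). The call was lost without wild-type replicate 1 (adjusted p = 0.108), wild-type replicate 2 (0.11), unc-37 replicate 1 (0.108) or unc-37 replicate 3 (0.0724).

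The second probe set of inx-3 read 5.49, 5.92 and 5.74 in unc-37, against 6.0, 5.98 and 5.84 in wild type. Here unc-37 replicate 2 lay above wild-type replicate 3, and the change of -0.22 ± 0.12 was not called (adjusted p = 0.354). It differed from the change of the brighter probe set by 0.61 log2 units (brighter minus dimmer -0.61, interval -0.94 to -0.28, adjusted p = 0.053). That difference was called when the prior variance followed intensity (0.0402), a second quantile normalization (0.0404) or without unc-37 replicate 2 (0.0454), and not under the other 6 alternatives run for it (0.0601 to 0.246).

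Markers of the pharynx and hypodermis, tissues that use inx-3, are given beside it, and those of the hypodermis were called in both directions. Of 8 pharynx genes, 2 were lower in unc-37 and none higher, and their summed intensity was 2860 to 3670 in unc-37 and 5053 to 6558 in wild type, with no overlap. The called pair was phat-2 (-1.52, adjusted p = 0.0171), named for pharyngeal glands, and abu-14 (-2.38, adjusted p = 0.00144), of the pharyngeal cuticle, while the pharyngeal myosin genes myo-1 (-0.12) and myo-2 (-0.09) were not called. The pharynx sums differed mostly through abu-14, at log2 8.76 to 8.77 in unc-37 and 10.82 to 11.74 in wild type. The mean log2 level of the list, which includes abu-14, was 7.60 to 8.03 in unc-37 and 8.43 to 8.55 in wild type. Of 9 hypodermis genes, 1 was lower and 1 higher, with sums of 8077 to 13809 in unc-37 and 14153 to 20703 in wild type. Those sums rest on a few bright collagen genes such as dpy-13 (-0.91, called), while wrt-10 was higher (1.64), and the mean log2 level of the list overlapped, at 8.69 to 9.27 in unc-37 and 8.90 to 9.30 in wild type. The part of these tissues in the level of inx-3 was not tested.

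The genes inx-12 and inx-13 are neighbours in the genome and encode innexins of the excretory canal, the osmoregulatory organ. The probe set of inx-12 read 9.65, 9.61 and 9.49 in unc-37, against 9.61, 9.39 and 9.85 in wild type. The unc-37 arrays lay inside the wild-type range, and the change was -0.04 ± 0.13 (interval -0.32 to 0.25, adjusted p = 0.913). For inx-13 the arrays read 8.31, 8.64 and 7.67 in unc-37, against 8.22, 8.13 and 8.67 in wild type. Its unc-37 SD of 0.49 was the widest among the 14 probe sets in either group, with unc-37 replicate 3 the lowest array. The change of -0.13 ± 0.24 had an interval of -0.69 to 0.42 (adjusted p = 0.815), so a change of 1.5-fold in the downward direction was not excluded by it. Of 6 excretory canal markers, 5 were not called and the POU homeodomain gene ceh-6, which neurons also express, was higher (1.12, adjusted p = 0.00129). The canal markers summed to 827 to 842 in unc-37 and 829 to 860 in wild type.

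INX-14 is an innexin of germ cells, which couple to the sheath of the somatic gonad. Its probe set read 5.70, 5.79 and 5.77 in unc-37, against 5.91, 5.85 and 5.82 in wild type. The groups did not overlap by a narrow margin, and the change of -0.11 ± 0.08 was not called (interval -0.30 to 0.08, adjusted p = 0.509). None of 8 germline genes was called by limma, and 1 had an unadjusted p below 0.05. Their sums were 1141 to 1252 in unc-37 and 1150 to 1291 in wild type.

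INX-19, also known as NSY-5, forms the embryonic network of coupled neurons that makes the left and right AWC olfactory neurons differ. Its brighter probe set read 5.14, 5.16 and 5.13 in unc-37, against 5.15, 5.17 and 5.29 in wild type. Its second one read 4.70, 4.76 and 4.64 in unc-37, against 4.69, 4.76 and 4.67 in wild type. The groups overlapped in both, and the changes were -0.06 ± 0.08 and -0.01 ± 0.09 (adjusted p = 0.754 and 0.972). Both intervals, -0.26 to 0.13 and -0.20 to 0.19, lie within a change of 1.5-fold either way. All 4 group means were below 5.69, the median level of all probe sets.

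The remaining pair is inx-7 and inx-10, of which inx-10 takes part in body wall muscle coupling. The probe set of inx-7 read 6.31, 6.27 and 6.11 in unc-37, against 6.33, 6.22 and 6.24 in wild type, a change of -0.04 ± 0.09 (interval -0.25 to 0.18, adjusted p = 0.874). That of inx-10 read 6.22, 6.49 and 6.0 in unc-37, against 6.49, 6.42 and 6.44 in wild type. The wild-type arrays of inx-10 lay close together (SD 0.03) and the unc-37 arrays were spread around a lower mean (SD 0.24), and the change of -0.21 ± 0.13 was not called (interval -0.50 to 0.08, adjusted p = 0.388).

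The other 15 innexin genes of the family, each at its brightest probe set, gave no call in limma, and 2 had an unadjusted p below 0.05. The smallest p in the downward direction was that of inx-2, at 5.40, 5.36 and 5.30 in unc-37, against 5.65, 5.59 and 5.71 in wild type (change -0.30 ± 0.09, adjusted p = 0.0788). The smallest p upward was that of inx-9, an innexin of the gonadal sheath, at 0.23 ± 0.13 (adjusted p = 0.38). Changes of the 15 ran from -0.52 for inx-15 to 0.23 for inx-9, with a median of -0.07. Over all 25 innexins, 2 were called higher and 1 lower. Of the 25, 21 lay below 0, as did 9145 of all 17118 genes, and the median change of the 25 was -0.07.

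Innexins known to couple body wall muscle, a grouping made after the values were seen, did not move as one. Beside unc-9 (1.05) and inx-1 (0.56), the changes were -0.21 for inx-10, -0.03 for inx-11, -0.19 for inx-16 and -0.12 for inx-18, none of them called. The gene inx-16 is best known for the intestine, where it carries the calcium wave of the defecation cycle. The pharyngeal innexins inx-6 (-0.02) and eat-5 (-0.16) were not called (adjusted p = 0.963 and 0.369).

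**Figure D2:**
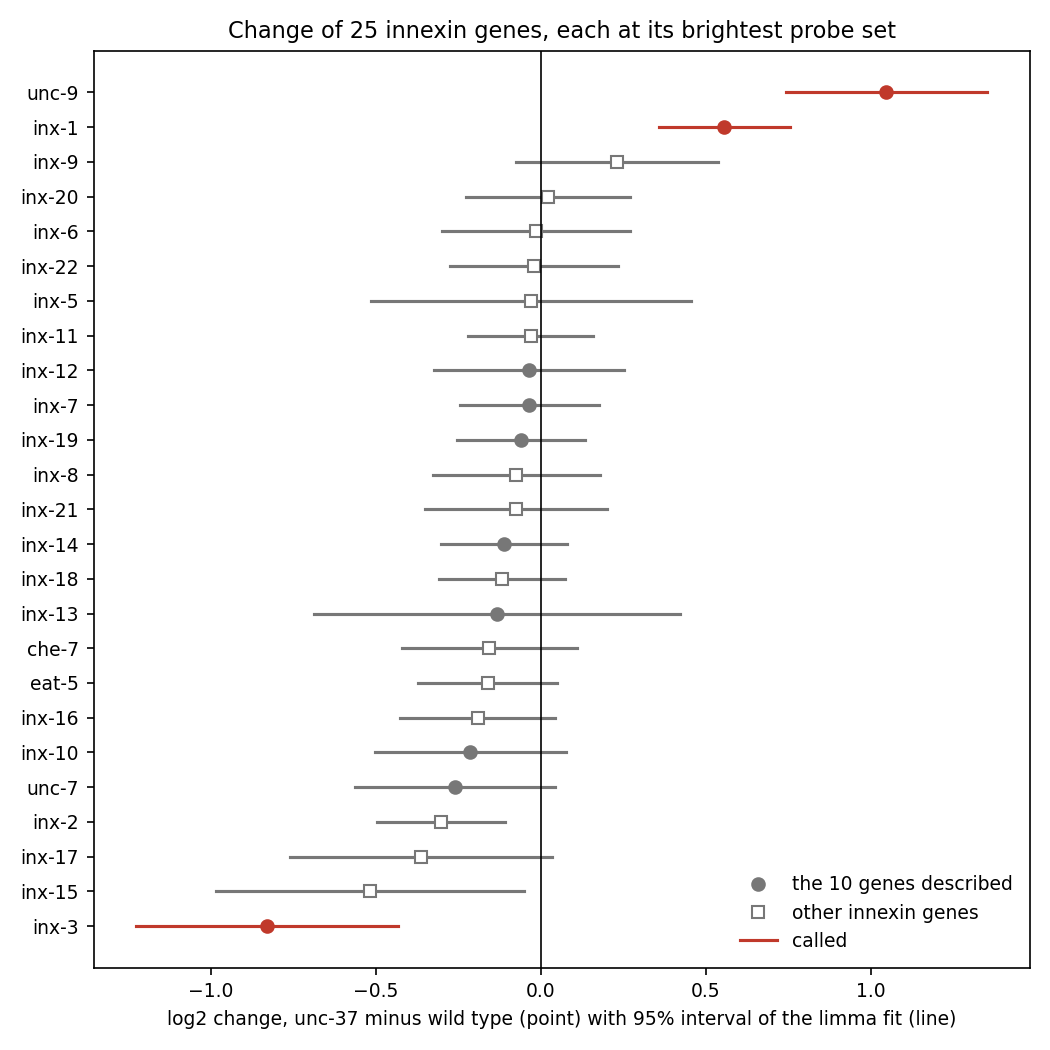
Log2 change (horizontal axis, unc-37 minus wild type) of 25 innexin genes with the 95% interval of the limma fit; filled circles are the 10 genes described, open squares the other 15, and red marks the called genes. Only the intervals of unc-9 and inx-1 lie wholly above 0, while those of inx-3, inx-15 and inx-2 lie wholly below it and only inx-3 was called.

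Of the 17 pan-neuronal genes, 9 were called higher in unc-37 arrays and none lower. The innexins were therefore also set against this list, by scaling each array to the mean of its 17 genes. This lowers every log2 change by 0.54, and 83.5% of all probe sets were then called lower and 1.17% higher. With so many probe sets called, the Benjamini-Hochberg adjustment raises each p less than on the deposited scale. A call after scaling therefore meets a weaker standard. With the scaling, unc-9 kept a rise of 0.51 ± 0.12 at its brighter probe set (interval 0.23 to 0.78, adjusted p = 0.0037). The dim probe set of unc-9 was at 0.20 and was no longer called (adjusted p = 0.191). The gene inx-1 stood at 0.01 (interval -0.22 to 0.25, adjusted p = 0.898), so its change was close to the mean change of the pan-neuronal genes. The remaining 11 probe sets of the 14 were called lower, from -0.41 for the dim probe set of inx-1 to -1.37 for inx-3, and unc-7 was at -0.80 (adjusted p = 0.000789). Because most probe sets fall under this scaling, these falls only place those probe sets below the pan-neuronal genes; of the 11, the brighter one of inx-3 was also called lower on the deposited scale. The scaling does not set unc-9 against the cholinergic and A-class markers, which had the median change of 0.98 given above. Its reference also holds dim probe sets, below the median level of all, of rgef-1 (-0.001), unc-31 (-0.17) and maco-1 (0.07). The shift of 0.54 is a mean that includes them, and the median change of the 17 genes was 0.61.

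**Figure D3:**
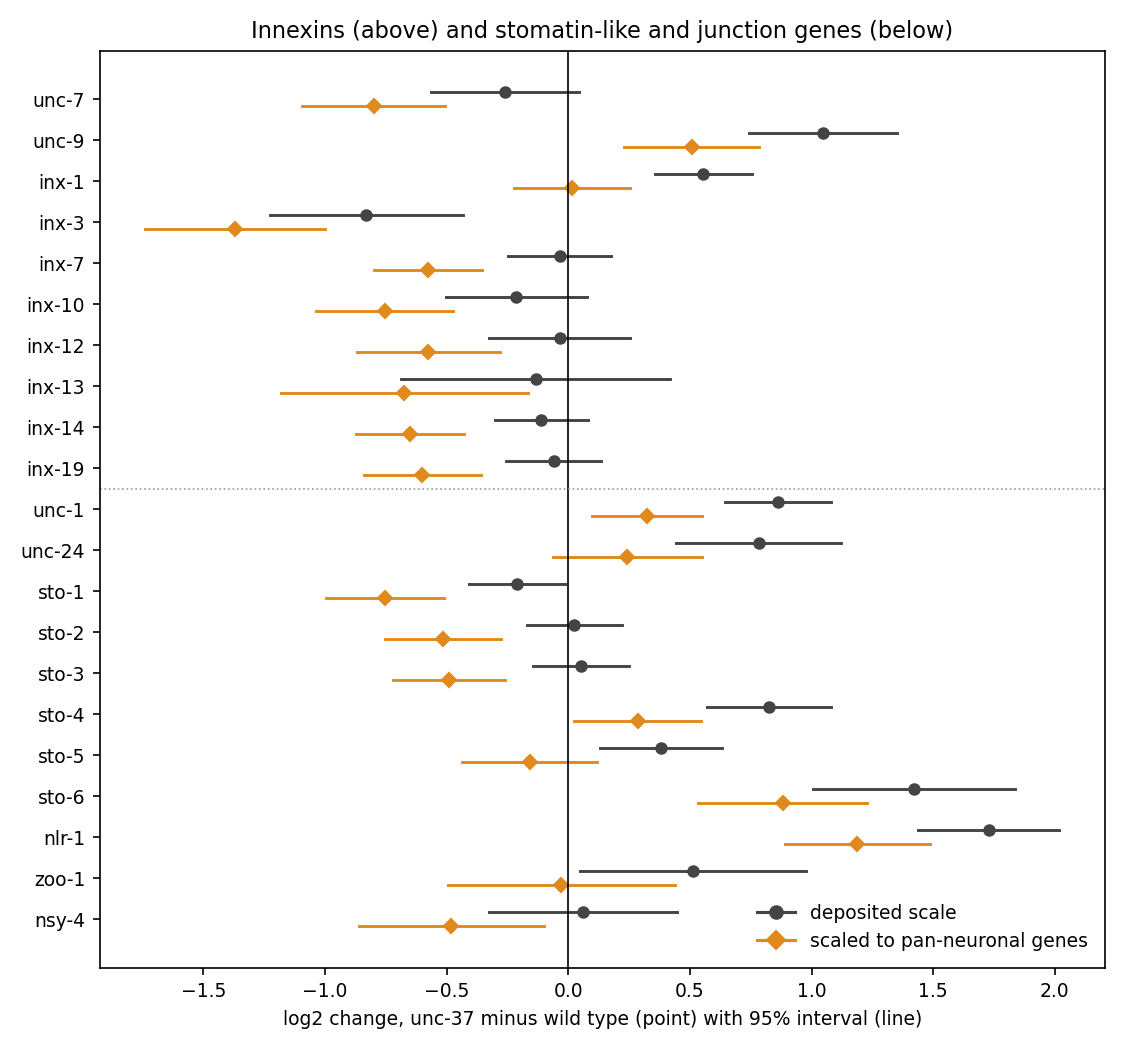
Log2 change (horizontal axis, unc-37 minus wild type) with 95% interval for the 10 innexins (above the dotted line) and 11 stomatin-like and junction genes (below it), on the deposited scale (dark circles) and after scaling to the 17 pan-neuronal genes (orange diamonds). After scaling, unc-9 stays above 0 at 0.51, inx-1 lies at 0.01 and the other 8 innexins lie below 0.

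Some innexin channels need partner proteins, and a list of 11 genes, called partners here for short, was examined. It holds unc-1, unc-24 and sto-1 to sto-6 of the stomatin family, and the neurexin-like gene nlr-1. It also holds zoo-1 (related to the junction scaffold ZO-1) and nsy-4, a claudin-like gene that acts with inx-19 in AWC. The genes sto-1 to sto-6 were listed as relatives of unc-1, and whether innexin channels need them was not tested. Of the 11, 5 were higher in unc-37 and none lower, where 3.94% and 2.81% of all genes were. Neuronal lists also held many higher genes: 9 of 17 pan-neuronal, 7 of 9 cholinergic and A-class, 4 of 5 B-class and 2 of 6 GABA genes. The count is therefore not particular to these 11 genes. The list's median change was 0.51. The 5 were unc-1, unc-24, sto-4, sto-6 and nlr-1.

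UNC-1 is a stomatin that UNC-9 gap junctions need in order to conduct. Its probe set read 9.18, 9.28 and 9.05 in unc-37, against 8.38, 8.26 and 8.28 in wild type. The groups lay far apart relative to their spread, at 9.17 ± 0.12 in unc-37 and 8.31 ± 0.07 in wild type (SD, n = 3 each). The change of 0.86 ± 0.10 was 1.82-fold (interval 1.56 to 2.12, adjusted p = 0.0023).

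UNC-24 is a stomatin-like protein that affects where UNC-1 is found in the cell. Its gene read 7.05, 6.71 and 6.49 in unc-37, against 6.10, 5.98 and 5.83 in wild type, without overlap (change 0.78 ± 0.15, 1.72-fold, adjusted p = 0.0193). The call was lost without wild-type replicate 2 (adjusted p = 0.0705), unc-37 replicate 1 (0.0526) or unc-37 replicate 2 (0.0511).

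Of the sto genes, sto-6 rose most. It read 9.42, 9.54 and 9.23 in unc-37, against 8.40, 7.71 and 7.80 in wild type, a change of 1.42 ± 0.18 or 2.68-fold (adjusted p = 0.00406). The gene sto-4 had 2 probe sets, and both were called, at 0.83 ± 0.11 and 0.95 ± 0.13 (adjusted p = 0.00498 for each). The name of the brighter one ends in _x_at, which marks probes that may cross-hybridise to similar sequences. Values of 0.38 for sto-5 (adjusted p = 0.0847), 0.05 for sto-3, 0.02 for sto-2 and -0.21 for sto-1 (0.209) were not called, though the groups of sto-5 and of sto-1 did not overlap.

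The gene nlr-1 encodes a Caspr-like protein on which gap junction assembly has been found to depend in this worm. Its brighter probe set read 7.85, 7.84 and 7.74 in unc-37, against 6.06, 6.33 and 5.86 in wild type, a change of 1.73 ± 0.13, or 3.31-fold (interval 2.71 to 4.05, adjusted p = 0.000789). The second probe set read 6.07, 5.87 and 5.85 in unc-37, against 5.50, 5.57 and 5.09 in wild type. It did not overlap either but changed by 0.55 ± 0.14 and was not called (adjusted p = 0.058). Here the 2 probe sets changed unequally, by 1.18 (interval 0.88 to 1.48, adjusted p = 0.00147). The genes zoo-1 (0.51 ± 0.20, adjusted p = 0.199) and nsy-4 (0.06 ± 0.17, 0.887) were not called.

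**Figure D4:**
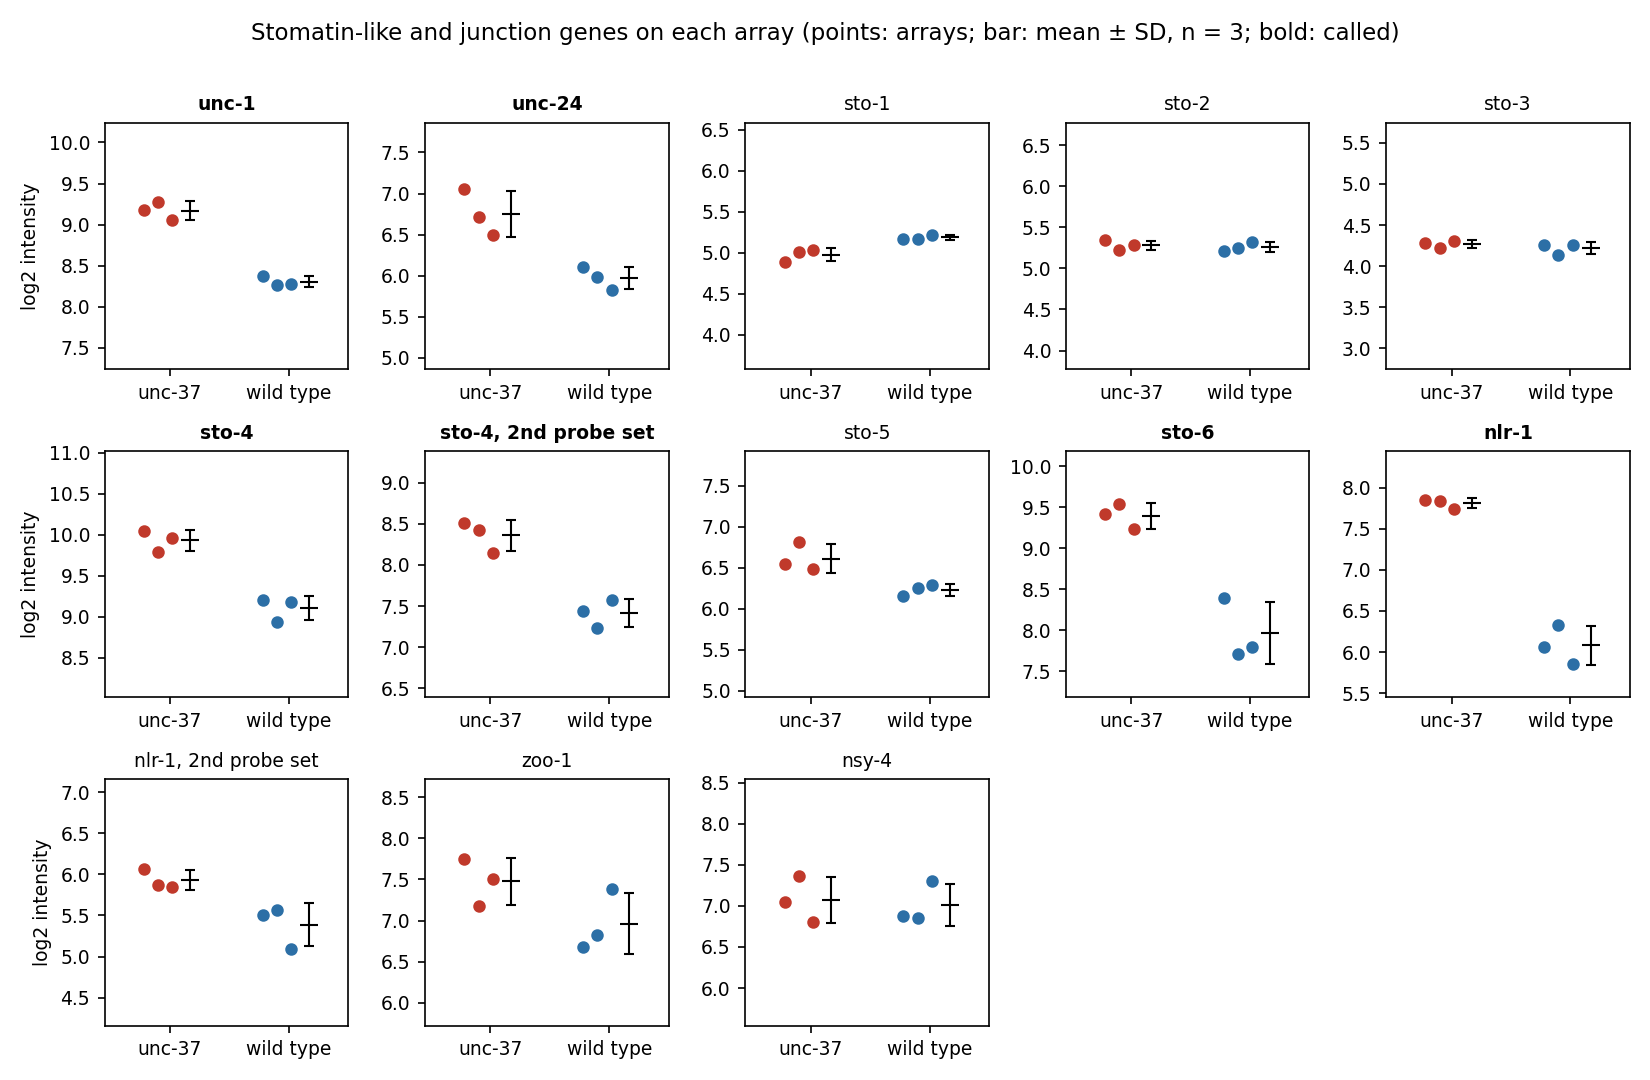
Log2 intensity (vertical axis, each panel spanning the same range of log2 units around its own mean) of 13 probe sets of 11 stomatin-like and junction genes on 3 unc-37 arrays (left, red) and 3 wild-type arrays (right, blue); bars are means ± SD, n = 3. The groups of unc-1, unc-24, sto-4, sto-6 and nlr-1 are apart with unc-37 higher, while those of sto-2, sto-3, zoo-1 and nsy-4 overlap.

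With the pan-neuronal scaling, the brightest probe sets of unc-1 (0.32), sto-4 (0.29), sto-6 (0.88) and nlr-1 (1.19) were called higher. Their adjusted p were 0.0133, 0.0425, 0.000943 and 0.000319, under the weaker standard described above for this scaling. The second probe set of sto-4 was called too (0.41, adjusted p = 0.013). That of nlr-1 was at 0.006 and was not called (adjusted p = 0.969), so the nlr-1 call rests on its brighter probe set. The gene unc-24 was at 0.24 and was not called (0.12). At the same scaling sto-1, sto-2, sto-3 and nsy-4 were called lower (-0.48 to -0.75), as were most probe sets. On the deposited scale, the changes of unc-1 (0.86), unc-24 (0.78) and sto-4 (0.83) lay below the median of 0.98 of the cholinergic and A-class markers. Those of sto-6 (1.42) and of the brighter nlr-1 probe set (1.73) lay above that median. The change of the second nlr-1 probe set (0.55) lay below it. These differences were not tested.

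Over the 6 arrays, the genes most like unc-9 were found by Pearson's r of log2 values among 10378 genes with a symbol, each at its brightest probe set. They were cep-1, related to p53 (r = 0.997), the voltage-gated calcium channel gene unc-2 (0.994), the globin gene glb-18 (0.994), egl-44, a TEAD transcription factor (0.993), and the tubulin acetyltransferase gene atat-2 (0.993). Their changes were 0.19, 1.05, 1.30, 0.59 and 0.95, and all but that of cep-1 (adjusted p = 0.224) were called. With 6 arrays in 2 groups such values are common: 471 of the 10378 genes reached r = 0.9 with unc-9. For unc-7 the likest genes were tbx-31, osm-5, cutl-13, ule-5 and eakr-1 (r = 0.98 to 0.99). None of these 5 was called (changes of -0.09 to -0.31), and 162 genes reached r = 0.9.

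Innexins also differed in how they varied among the unc-37 arrays. For 4 of the 10 genes (inx-7, inx-10, inx-13 and inx-19) and for 11 of the 25 innexins, unc-37 replicate 3 was the lowest of the 6 arrays, where this held for 2740 of all 17118 genes. The unc-37 range was 0.96 for inx-13 and for inx-5, 0.78 for inx-15 and 0.74 for inx-17, each with replicate 3 lowest and replicate 2 highest among the unc-37 arrays. For inx-17 the wild-type range was 0.09. The summed intensities of pharynx and intestine markers were also lowest on unc-37 replicate 3, at 2860 and 5553. They reached at least 3545 and 7170 on the other unc-37 arrays, and 5053 and 7498 on the wild-type arrays. Other lists went differently. Sums of somatic gonad and glia markers were highest on unc-37 replicate 3, at 932 and 1095. The excretory canal markers, of a tissue that uses inx-13, summed to 839 there, against 827 and 842 on the other unc-37 arrays. For unc-9 and inx-1 the unc-37 arrays spanned 0.12 each, so replicate 3 did not stand apart there.

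**Figure D5:**
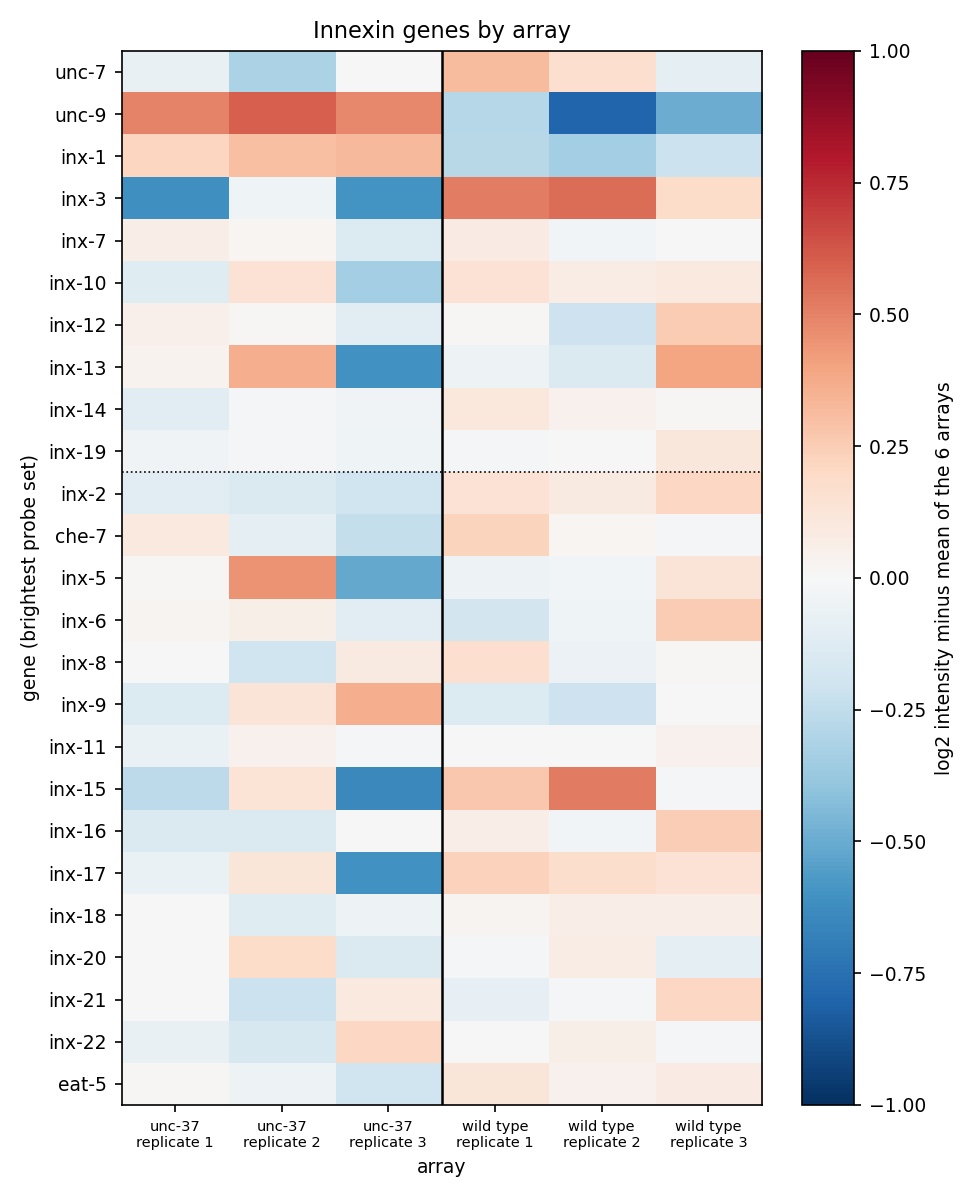
Log2 intensity of 25 innexin genes (rows, the 10 genes described above the dotted line) on each array (columns, unc-37 left of the line and wild type right of it), shown as the difference from the mean of the 6 arrays (colour, log2 units). Rows unc-9 and inx-1 are red on all unc-37 arrays and blue on all wild-type arrays, and inx-5, inx-13, inx-15 and inx-17 are darkest blue on unc-37 replicate 3.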

How the data were processed

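Each array's file column holds intensities of probe sets, deposited by the authors on a linear scale. They come from RMA, as the submitters' processing notes state, without a version or probe set definitions in the sources used here. In that method background is removed, the arrays are quantile normalized and the probes of a set are combined. Per the labels' protocols, RNA went through a pair of in vitro transcription rounds and a biotin label, which can favour the 3' ends of transcripts. Medians of 50.1 to 52.4 are too high for log2 values. The values were log2 transformed here, with no further normalization or filter. Of 22548 probe sets, 20766 named 1 gene, 887 several and 895 none. Each gene was read from the brightest of the probe sets that name it alone.

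Every probe set entered 1 linear model (limma 3.58.1, lmFit and eBayes, two-sided; R 4.3.3). Differences between probe sets of 1 gene were tested in a second limma fit over 3648 pairs. With 3 arrays a group, the number of arrays limits the precision. The fit was also run on simulated data with known changes. Those data had independent noise and no array or cell composition effects, so that run cannot speak to such effects here. Alternatives were an intensity trend or a robust prior, weights per array, leaving out dim probe sets, a second quantile normalization, centring on array medians, scaling to pan-neuronal genes, the replicate number as a block, other thresholds, gene means, and leaving out each array. The members, lists and alternatives were chosen with earlier results of these data known. Named are all probe sets of the 10 genes, the other innexins and partners that were called or of smallest p in each direction, and the 5 genes most like unc-9 and unc-7; further innexins, sto genes and markers were named after their values were seen. Besides the marker lists given in the report, none of 5 somatic gonad, 4 glia and 7 intestine genes was called. Plots used matplotlib 3.10.9 (Python 3.11.15).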

Additional observations from a re-analysis of the deposited data

How the results depend on the processing

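The rise of the brighter unc-9 probe set was called under all 14 alternatives run for it (change 0.51 to 1.17, adjusted p = 0.00279 to 0.0246), and that of inx-1 under 13 of 14, the exception being the pan-neuronal scaling; inx-1, at 1.47-fold, also drops out where a fold of at least 1.5 is asked for, which leaves 3 probe sets, 2 higher and 1 lower. Of the 14 innexin probe sets, 4 were called; with the pan-neuronal scaling 12 were, 1 higher and 11 lower, and with single arrays left out 2 to 4. That scaling also called 14 of the other 15 innexins lower and 8 partner genes, 4 in each direction, and it turned the changes of the dim inx-1 probe set to -0.41, sto-2 to -0.52, sto-3 to -0.49 and nsy-4 to -0.48; it lowers every change by construction. Among the other 15 innexins, 1 was called at an adjusted p below 0.1 (inx-2) and 1 with the replicate number as a block (inx-15, -0.52, adjusted p = 0.0484), and none without any single array. Partner genes called numbered 4 to 6 with single arrays left out. No member pair of probe sets differed by a call on the deposited scale; 1 did with an intensity trend and 1 with a second quantile normalization (inx-3 in each), and 0 to 1 with single arrays left out. The widening of the gap between unc-9 and unc-7 was 1.15 to 1.43 without single arrays. The replicate numbers share no stated source, and same-numbered arrays did not deviate together (r = -0.19 to -0.10), so they do not pair the arrays; with the replicate block that widening was 1.31 and 4 innexin probe sets were called. The cause of the other shifts was not tested. Dim probe sets, 4 of the 14 below the median level of all, limit what inx-19 and the second probe sets of unc-9 and inx-1 can show, and 3 arrays a group limit all calls.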
